A study of Capra hircus with 6 samples.

Results

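Dermal papilla cells build a matrix that is rich in secreted glycoproteins, and 10 of their genes are described here: THBS1, THBS2, TNC, POSTN, SPARC, FN1, ELN, FBN1, FBLN1, and FBLN5. They were chosen by the function of their products, and the choice was made with the difference between these same ATRA and control libraries already known. Their levels in the 2 groups are therefore values to be described, and no test of them is given. All 10 are among the 15944 genes listed in the count table and among the 12588 genes kept after low counts were filtered out. Each had at least 110 counts in every library, so none of them passed the filter through 1 group alone.

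Matricellular proteins are secreted into the extracellular matrix, where they modulate how cells attach, move, and respond to growth factors rather than serving mainly as scaffold. Thrombospondins, tenascin C, periostin, and SPARC belong to this class, and fibronectin is the adhesive fibril that many of them bind. Elastic fibres form when elastin is deposited on microfibrils of fibrillin, with fibulins guiding the assembly and lysyl oxidases cross-linking the elastin. In the hair follicle, the dermal papilla is the mesenchymal cluster that signals to the epithelium, and the matrix around its cells changes in volume over the hair cycle.

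The cells were secondary hair follicle dermal papilla cells (SHF-DPCs), grown as primary cultures from the scapular skin of wild-type Albas cashmere goats that were 3 years old and in anagen, the growth phase of the hair cycle. Passages 4 to 7 were used. The ATRA-treated group (3 libraries) received all-trans retinoic acid, the vitamin A metabolite that binds retinoic acid receptors, at 100 µM for 24 h, and the control group (3 libraries) was kept in medium without it. The cells came from 3 animals, and the sample labels used here name the treatment and no batch. Cultured cells have left the follicle and its epithelium, which limits them as a model of the papilla.

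Total counts were 36887160 to 38012771 in the control group and 35532339 to 36870939 in the ATRA-treated group. Levels are given as normalized CPM, the CPM value after scaling by edgeR's TMM factors (0.842 to 0.851 in the control group, 1.16 to 1.20 with ATRA). The log2 fold change (log2FC) is ATRA over control, with its standard error (SE) from edgeR's quasi-likelihood fit over all tested genes. A gene was counted as lower or higher where log2FC was below -1 or above 1 with an unadjusted p under 0.05. By this rule 2174 of the 12588 genes were lower (17.3%) and 1730 were higher (13.7%), and with library size alone as the scale the split was 1471 lower and 3390 higher. The median log2FC of all tested genes was 0.04, and it was 0.52 with library size alone. The markers of the labelled cell type were mixed. ACTA2, the smooth muscle actin used to identify these cells, was at a control mean of 6582 ± 462 CPM and an ATRA mean of 8.37 ± 0.829 CPM (SD, n = 3 each), although reads of near-identical actin genes may have been divided between them. PROM1, which encodes CD133, had 1 count in 1 control library and 0 counts in the other 5 libraries, a level at which a few counts could be missed.

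The 10 genes together took 5.99% ± 0.190 of all counts without ATRA and 0.788% ± 0.0729 with it (SD, n = 3 each). In 9 of the 10 genes the level was lower with ATRA beyond the thresholds, beside 17.3% of all tested genes. In 10 of the 10 genes every ATRA library lay below every control library, beside 39.0% of all tested genes. The genes were chosen with this difference known, so nothing is read from these counts. The median log2FC of the 10 genes was -3.41. In bulk RNA, fewer cells of a type and less RNA per cell cannot be told apart.

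**Figure D1:**
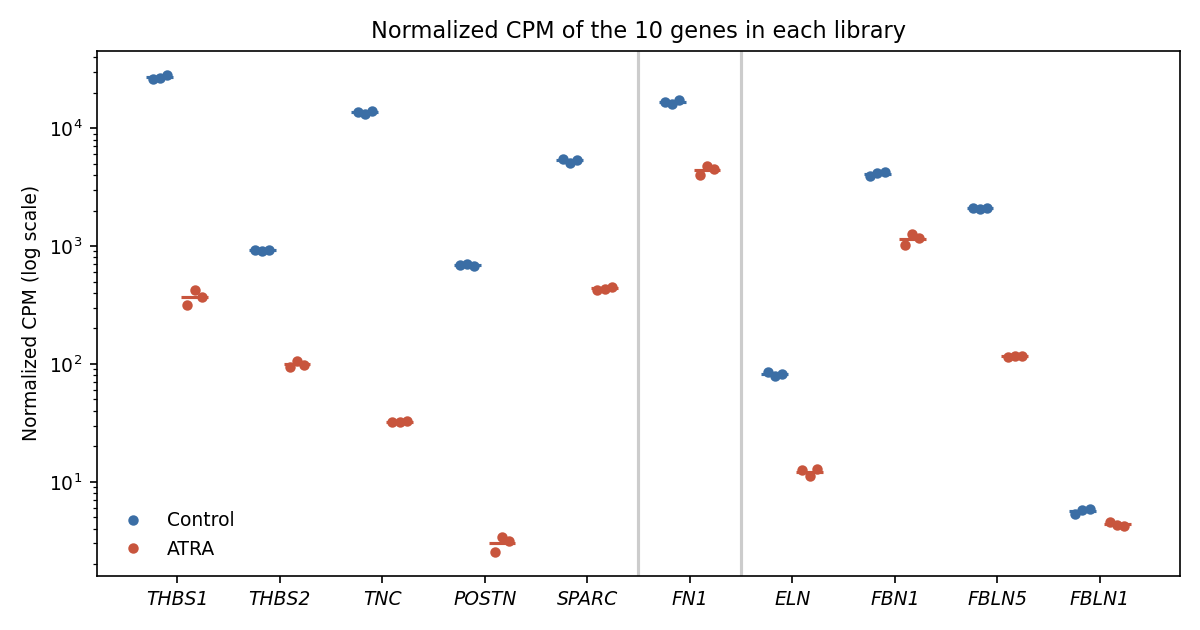
Normalized CPM (log scale) of the 10 genes in each of the 6 libraries, with points for libraries (control blue, ATRA red) and short lines for group means; grey lines separate matricellular genes, FN1, and elastic-fibre genes. The groups lie farthest apart in TNC (13630 against 32.4 CPM on average) and closest in FBLN1 (5.68 against 4.36 CPM).

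Among the matricellular genes, THBS1 encodes thrombospondin 1, a large adhesive glycoprotein that binds CD47 and integrins and can activate latent TGF-β. Its normalized CPM was 26190, 26660, and 28470 in the control libraries and 317.6, 422.4, and 371.9 in the ATRA libraries. The control libraries varied little (coefficient of variation 4.43%), and the ATRA libraries were all far lower but more scattered (14.1%). The control mean was 27110 ± 1200 and the ATRA mean 371 ± 52.4 (SD, n = 3 each), 73.1-fold lower, with a log2FC of -6.19 (SE 0.103). Counted by raw reads among all genes, THBS1 stood at rank 3, 3, and 1 in the control libraries and at rank 381, 255, and 316 in the ATRA libraries. Such ranks order reads and not transcript numbers, since a longer transcript gives more reads.

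THBS2 encodes thrombospondin 2, the close paralog of thrombospondin 1 that lacks the ability to activate TGF-β. It was at 934.0, 909.8, and 929.4 CPM in the control libraries and at 94.1, 105.8, and 97.5 CPM in the ATRA libraries. The difference was smaller than in THBS1, at 9.33-fold lower and a log2FC of -3.22 (SE 0.0639). The ratio of THBS1 to THBS2 counts, which compares the paralogs within a library, was 28.0, 29.3, and 30.6 in the control libraries. With ATRA it was 3.38, 3.99, and 3.82. The ratio did not overlap between the groups, so the reads of the pair were less dominated by THBS1 in the treated cells.

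TNC encodes tenascin C, an oligomeric glycoprotein of remodelling and embryonic matrix. Its normalized CPM was 13700, 13220, and 13980 in the control libraries and 32.4, 32.1, and 32.7 in the ATRA libraries. The ATRA libraries differed by less than 1 CPM from each other, and the log2FC of -8.72 (SE 0.0806) had the largest size among the 10 genes. The control mean was 13630 ± 384 and the ATRA mean 32.4 ± 0.319 (SD, n = 3 each), 420.8-fold lower. By raw reads TNC was at rank 6 in each control library and at rank 5478, 5523, and 5408 in the ATRA libraries. Only 0.183% of the tested genes had a lower log2FC.

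POSTN encodes periostin, a TGF-β-inducible protein that binds collagen and tenascin C and supports cross-linking. It was at 685.6, 707.7, and 673.9 CPM in the control libraries and at 2.55, 3.42, and 3.12 CPM in the ATRA libraries. The low group rests on 110, 151, and 129 counts, and its relative spread was the widest of the 10 genes (coefficient of variation 14.7%). The level was 227.5-fold lower with ATRA, with a log2FC of -7.83 (SE 0.0917). By raw reads POSTN moved from ranks 224 to 230 in the control libraries to ranks 10255 to 10557 with ATRA.

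SPARC encodes osteonectin, a collagen-binding glycoprotein that is abundant where matrix is being deposited. It was at 5513, 5105, and 5339 CPM in the control libraries and at 427.0, 435.6, and 448.0 CPM in the ATRA libraries. These values left a wide gap between the groups, with a 12.2-fold lower mean and a log2FC of -3.61 (SE 0.0642). By raw reads, SPARC stood at rank 18 in each control library and at rank 257, 244, and 248 with ATRA.

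FN1 encodes fibronectin, whose fibrils carry integrin-binding sites and serve as an early template for other matrix proteins. Its normalized CPM was 16770, 16080, and 17260 in the control libraries and 4039, 4798, and 4517 in the ATRA libraries. The treated libraries held 26.7% of the control level, at a log2FC of -1.91 (SE 0.0697). Unlike THBS1 and TNC, FN1 stayed among the genes with the most reads, at rank 5 in each control library and at rank 8, 7, and 8 with ATRA.

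The elastic-fibre genes began from very different read numbers. ELN encodes tropoelastin, the soluble precursor of the elastic core. It was at 85.4, 79.3, and 81.4 CPM in the control libraries and at 12.5, 11.1, and 12.8 CPM in the ATRA libraries. The groups did not overlap, with a 6.75-fold lower mean and a log2FC of -2.76 (SE 0.0762).

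FBN1 encodes fibrillin 1, the main protein of microfibrils, which also hold latent TGF-β complexes. It was at 3914, 4166, and 4261 CPM in the control libraries and at 1015, 1266, and 1163 CPM in the ATRA libraries. The treated libraries held 27.9% of the control level, close to the 26.7% of FN1, at a log2FC of -1.84 (SE 0.0747). The ratio of FN1 to FBN1 counts, chosen after the values were seen, was 4.29, 3.86, and 4.05 in the control libraries and 3.98, 3.79, and 3.88 with ATRA. These ratios overlapped between the groups. The ratio of FBN1 to its paralog FBN2 did not overlap, at 421.3 ± 53.0 in control libraries and 696.1 ± 61.7 in ATRA libraries (SD, n = 3 each).

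FBLN5 encodes fibulin 5, which ties tropoelastin and lysyl oxidases to microfibrils and to integrins. It was at 2109, 2054, and 2113 CPM in the control libraries and at 115.2, 116.8, and 117.2 CPM in the ATRA libraries. Its libraries were the least scattered of the 10 genes with ATRA (coefficient of variation 0.915%), and the mean was 18.0-fold lower, with a log2FC of -4.17 (SE 0.0621). In the RefSeq gene table (assembly ARS1.2) FBLN5 overlaps the noncoding gene LOC108638511. Whether counting used the strand is not given in the sources used here, so reads of the pair could not be separated.

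FBLN1 encodes fibulin 1, a calcium-binding glycoprotein found in elastic fibres and basement membranes. It was at 5.35, 5.81, and 5.88 CPM in the control libraries and at 4.56, 4.33, and 4.18 CPM in the ATRA libraries. This was the gene with the smallest difference and the only one of the 10 not past the thresholds, at a log2FC of -0.38 (SE 0.131). Its direction depended on the scaling. The unscaled counts were 166, 188, and 189 in the control libraries and 197, 191, and 173 with ATRA, and with library size alone the log2FC was 0.095 while the median of all tested genes was 0.52. The ratio of FBLN5 to FBLN1 counts was 369.0 ± 22.2 in control libraries and 26.8 ± 1.39 in ATRA libraries (SD, n = 3 each). A ratio within a library needs no scaling, and it did not overlap between the groups.

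**Figure D2:**
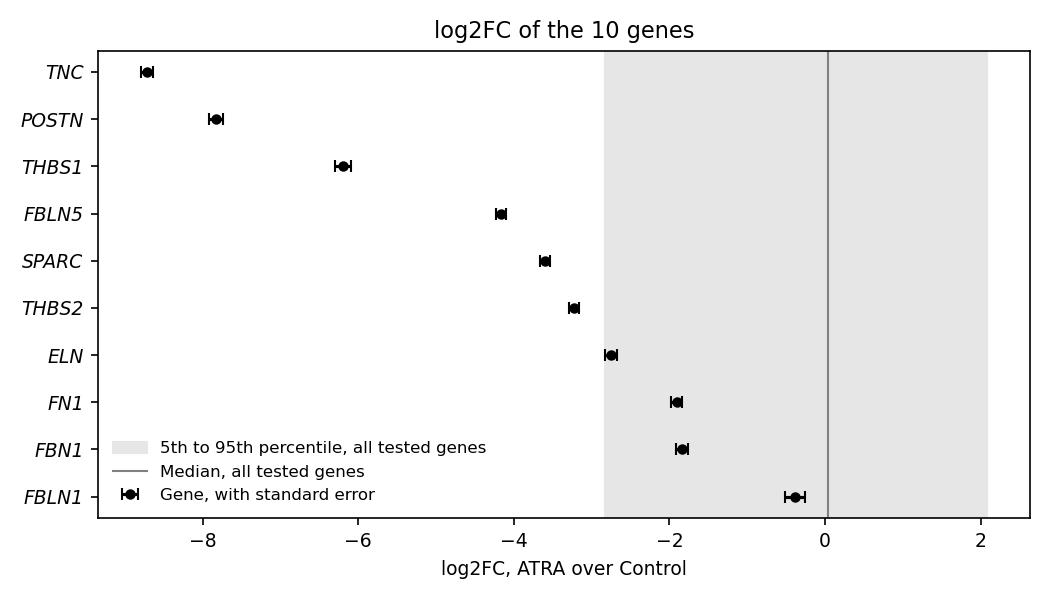
log2FC (ATRA over control) of the 10 genes, points with standard errors as bars, over the 5th to 95th percentile of all tested genes (grey band, -2.83 to 2.09) and their median (line, 0.04). TNC, POSTN, THBS1, FBLN5, SPARC, and THBS2 lie below the band, and ELN, FN1, FBN1, and FBLN1 lie inside it.

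Ordered by log2FC from the lowest, the genes ran TNC, POSTN, THBS1, FBLN5, SPARC, THBS2, ELN, FN1, FBN1, and FBLN1. The ratio of counts of each gene to its neighbour in this order was compared between the groups. In 8 of the 9 neighbouring pairs the 3 ratios of one group did not overlap with those of the other. The order and the ratios come from the same libraries, so this describes the spread and is no test of the order. FN1 and FBN1 were the exception, with a difference between their log2FC values of 0.067. The spread among control libraries was small for every gene, with coefficients of variation from 1.39% in THBS2 to 5.12% in FBLN1, beside a median of 5.03% over genes of at least 10 CPM. With ATRA they ran from 0.915% in FBLN5 to 14.7% in POSTN, beside a median of 5.66%, and THBS1 (14.1%), FBN1 (11.0%), and FN1 (8.62%) were also wide. For 5 genes, THBS1, THBS2, POSTN, FN1, and FBN1, ATRA replicate 2 was the highest of its group. Leaving that library out moved the log2FC of THBS1 to -6.31 and that of FBN1 to -1.93.

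The unequal differences changed which genes supplied the reads of the set. THBS1 supplied 38.4% ± 0.782 of the counts of the 10 genes without ATRA and 5.54% ± 0.317 with it (SD, n = 3 each). TNC supplied 19.3% ± 0.264 and 0.488% ± 0.0444 (SD, n = 3 each). FN1 went from 23.6% ± 0.345 to 66.7% ± 0.0507 (SD, n = 3 each). FBN1 also made up more of the reduced total, with 5.82% ± 0.221 and 17.2% ± 0.420 (SD, n = 3 each), whereas SPARC supplied 7.53% ± 0.312 and 6.57% ± 0.497 (SD, n = 3 each). These shares describe reads within a library and do not depend on scaling between libraries.

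**Figure D3:**
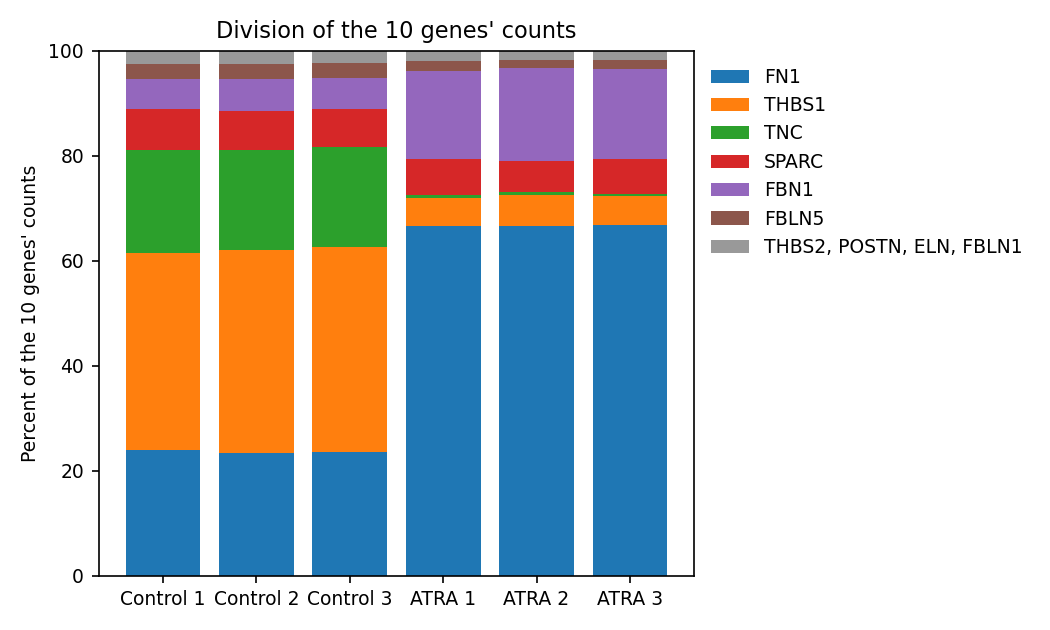
Percent of the 10 genes' counts supplied by each gene in each of the 6 libraries, as stacked bars from 0 to 100. On average THBS1, FN1, and TNC make up 38.4%, 23.6%, and 19.3% of the control bars, and 5.54%, 66.7%, and 0.488% of the ATRA bars.

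**Figure D4:**
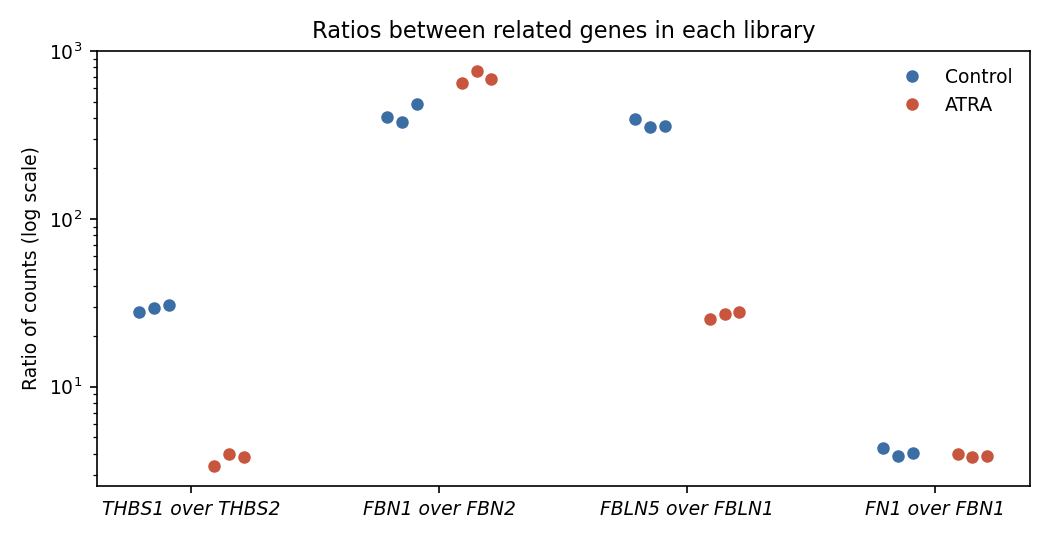
Ratio of counts (log scale) between related genes in each library, control in blue and ATRA in red, with 1 point for each library. THBS1 over THBS2 and FBLN5 over FBLN1 are lower with ATRA, FBN1 over FBN2 is higher, and FN1 over FBN1 overlaps between the groups.

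The deposited annotation gave further features of the genes. The genes were chosen by function, so shared terms follow in part from that choice and nothing is read from their number. Of the 9 genes with GO terms, 6 carried calcium ion binding (THBS1, THBS2, SPARC, FBN1, FBLN1, and FBLN5), a term of 315 tested genes. Heparin binding, a term of 72 tested genes, was carried by THBS1, THBS2, POSTN, FN1, and FBN1. Among the 6 genes with KEGG pathways, THBS1, THBS2, TNC, and FN1 were in ECM-receptor interaction, which holds 57 tested genes. FBLN1 shares calcium ion binding with SPARC and FBLN5, whose log2FC values were far lower.

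Of 20 further matricellular genes, 14 were tested, of which 11 fell and 3 rose, beside 17.3% and 13.7% of all tested genes. Their median log2FC was -2.58. This list and those of elastic fibre assembly and of receptors were chosen with earlier results of these data known. Nothing is therefore read from the numbers of their genes that fell or rose, or from their medians. The genes named from the lists were picked by the same fit, so their adjusted p-values are no independent support. TGFBI, an integrin-binding protein related to periostin, fell from 914.3 ± 35.7 to 40.7 ± 2.49 CPM (SD, n = 3; log2FC -4.49, edgeR adjusted p = 6.06e-20). SPARCL1 and SPOCK1, relatives of SPARC, fell with log2FC values of -4.90 and -3.57 (edgeR adjusted p = 5.71e-19 and 3.42e-19). Of the CCN family, CCN5 fell most (51.3 to 1.61 CPM, log2FC -4.99, edgeR adjusted p = 4.93e-18).

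TNXB, TNR, and SPOCK2 were the 3 relatives that rose, and each had few reads in the control group. TNXB, a tenascin of collagen-rich tissue, had 3, 2, and 3 counts in the control libraries and 129, 137, and 151 with ATRA. The ratio of its normalized counts, summed over each group, was 38.7 (95% exact interval 19.4 to 90.2, counting error only). TNR, a tenascin best known from the nervous system, had 2, 4, and 3 counts against 51, 47, and 42, and SPOCK2, a testican, had 5, 4, and 6 against 39, 13, and 30. These genes passed the filter on low counts through their ATRA libraries, so a difference was built into their being tested and their count supports nothing. SMOC1, 1 of the 11 that fell, passed through its control libraries in the same way (27, 14, and 12 counts against 0, 1, and 0).

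Of 22 genes of elastic fibre assembly, 20 were tested, of which 14 fell, 2 rose, and 4 did not pass the thresholds, beside 17.3% and 13.7% of all tested genes. Their median log2FC was -2.22. EFEMP1, which encodes fibulin 3, fell from 773.5 ± 23.7 to 15.2 ± 1.42 CPM (SD, n = 3; log2FC -5.67, edgeR adjusted p = 1.84e-20). MFAP5, a microfibril-associated glycoprotein, fell from 807.4 ± 53.2 to 27.2 ± 0.568 CPM (SD, n = 3; log2FC -4.89, edgeR adjusted p = 3.25e-20). LOX, the lysyl oxidase that cross-links elastin and collagen, fell from 1050.0 ± 29.5 to 79.4 ± 9.77 CPM (SD, n = 3; log2FC -3.73, edgeR adjusted p = 4.99e-18). FBLN7, another fibulin, had a log2FC of -3.24 (edgeR adjusted p = 3.65e-16). Within the fibulin family EFEMP1, FBLN7, and FBLN5 were lower. FBLN2 and EFEMP2 (fibulin 4) were also lower, with log2FC values of -1.31 and -2.12, and FBLN1 had a log2FC of -0.38.

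The 2 genes that rose were LTBP3 and LTBP2, which encode latent TGF-β binding proteins, relatives of the fibrillins. LTBP3 was at 57.9, 51.7, and 53.5 CPM in the control libraries and at 602.4, 586.5, and 605.6 CPM in the ATRA libraries. The groups were far apart, with a log2FC of 3.46 (SE 0.0635, edgeR adjusted p = 5.54e-19). LTBP2 rose from 357.7 ± 8.21 to 904.3 ± 25.9 CPM (SD, n = 3; log2FC 1.34, edgeR adjusted p = 1.08e-13). The members of this list that did not pass the thresholds were EMILIN2 (log2FC -0.81), LTBP1 (-0.64), LTBP4 (0.40), and the lysyl oxidase relative LOXL2 (-0.32). LTBP2 and LTBP3 thus rose where FBN2, their fibrillin relative (log2FC -2.58), and MFAP2 (log2FC -2.64) fell.

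Of 15 receptor genes, 12 were tested, of which 4 fell, 3 rose, and 5 did not pass the thresholds, beside 17.3% of all tested genes that were lower and 13.7% that were higher. Their median log2FC was -0.64, and it was -0.16 with library size alone. ITGA8, the integrin subunit that pairs with ITGB1 to bind fibronectin and tenascin C, fell from 492.6 ± 9.80 to 15.2 ± 2.18 CPM (SD, n = 3; log2FC -5.02, edgeR adjusted p = 2.60e-19). ITGAV, ITGA4, and ITGB1 fell with log2FC values of -1.81, -1.73, and -1.64 (edgeR adjusted p = 3.51e-14, 7.73e-10, and 7.70e-14). ITGB3, a partner of ITGAV, rose from 101.2 ± 2.01 to 308.3 ± 23.6 CPM (SD, n = 3; log2FC 1.61, edgeR adjusted p = 2.91e-14). SDC4, a heparan sulfate proteoglycan that binds fibronectin, rose with a log2FC of 1.37 (edgeR adjusted p = 6.31e-14). CD36, a receptor of thrombospondin 1, had 2, 1, and 2 counts in the control libraries and 16, 38, and 34 with ATRA, a ratio of 13.1 (95% exact interval 5.39 to 41.2, counting error only). CD36 passed the filter on low counts through its ATRA libraries alone, and without it 2 receptors rose.

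The receptors that did not pass the thresholds were CD47 (log2FC -0.63), LRP1 (-0.52), ITGA5 (-0.71), ITGB5 (-0.27), and ITGB8 (-0.65). CD47 and LRP1 are receptors of the thrombospondins, and ITGA5 is the partner of ITGB1 in the main fibronectin receptor. With library size alone the median log2FC of all tested genes was 0.52 in place of 0.04, a shift larger than the log2FC of ITGB5 and of LOXL2, so no direction is given for these genes.

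**Figure D5:**
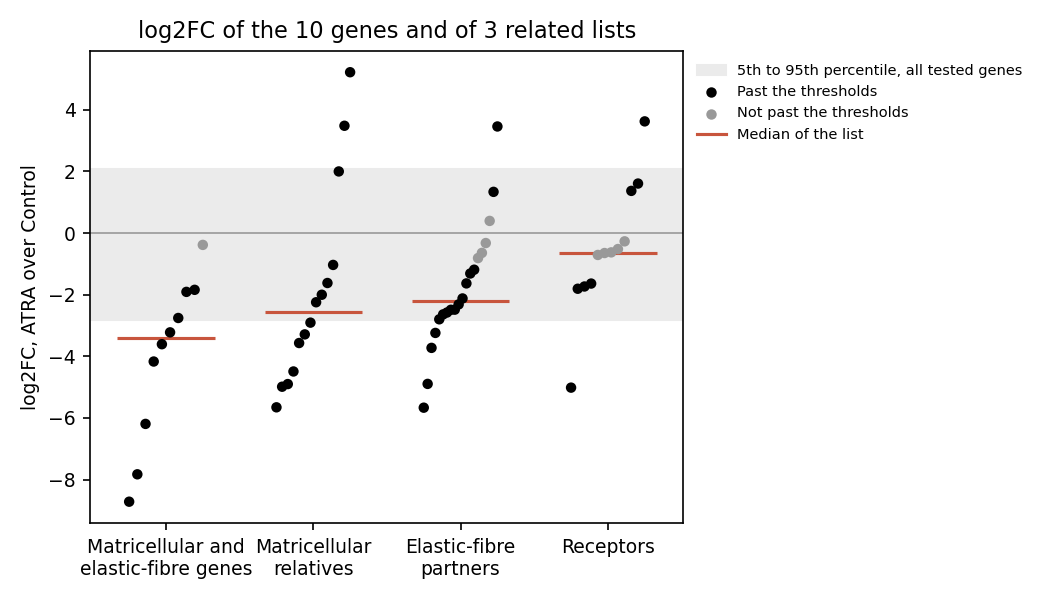
log2FC (ATRA over control) of the 10 genes and of the tested genes of the 3 related lists, 1 point for each gene (black past the thresholds, grey not), with list medians in red and the 5th to 95th percentile of all tested genes as a grey band. Medians are -3.41 for the 10 genes, -2.58 for the matricellular relatives, -2.22 for the elastic-fibre partners, and -0.64 for the receptors.

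Markers of other cell types were summed in each library. For smooth muscle markers the summed CPM, as the range over the libraries of a group, was 225.9 to 261.7 in the control group and 42.0 to 44.6 with ATRA. For leukocyte markers it was 9.18 to 12.8 and 41.2 to 44.1. Keratinocyte markers (3.11 to 4.98 and 5.37 to 5.97), endothelial markers (0.903 to 1.24 and 6.19 to 9.16), and adipocyte markers (1.27 to 2.13 and 2.45 to 3.22) summed to less than 10 CPM in every library. The keratinocyte sum was mostly KRT10 (means of 3.17 and 5.62 CPM, not past the thresholds). KRT14 went the other way (20, 14, and 10 counts against 3, 0, and 0), as did KRT5 (2, 7, and 3 against 0, 0, and 0). The endothelial sum with ATRA was mostly PECAM1 (mean 6.10 CPM). KDR had 5, 6, and 10 counts against 2, 1, and 0, and VWF and TEK did not pass the thresholds. The single melanocyte marker listed was at 3.80 to 4.27 and 1.97 to 2.34. Dermal papilla markers summed to 27510 to 30130 in the control group and 1767 to 1815 with ATRA. VIM made up most of these sums (means of 19160 and 1595 CPM), followed in the control group by ACTA2 (mean 6582 CPM). Of the 6 tested, 5 fell, while ALPL and CORIN had at most 1 count in any library. SOX2, with too few counts to be tested, went the other way (5, 0, and 2 counts against 10, 16, and 9). Of the other lists, 3 of 4 tested smooth muscle markers fell. Those that rose were 2 of 2 tested leukocyte markers (CD14 and CD68), 2 of 2 tested adipocyte markers, and 1 of 3 tested endothelial markers (PECAM1). Beside these counts, 17.3% of all tested genes were lower and 13.7% higher. The adipocyte marker ADIPOQ overlapped between the groups (0.741, 0.124, and 0.436 CPM against 1.02, 0.726, and 0.918). The smooth muscle marker DES had few counts (16, 18, and 14 against 3, 6, and 12). DES passed the filter on low counts through its control libraries, so a difference was built into its being tested and its fall supports nothing. Of the defining markers, PECAM1 had 0 counts in each control library and 242, 340, and 206 with ATRA. PECAM1 passed the filter on low counts through its ATRA libraries alone, so a difference was built into its being tested. CDH5, TP63, and AIF1 had at most 1 count in any library, and PTPRC was not analysed here. The part of these markers in the differences of the 10 genes was not tested.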

How the data were processed

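RNA-seq was available for 3 control and 3 ATRA-treated cultures of SHF-DPCs. Read cleaning used fastp and TrimGalore. The table deposited by the authors holds raw counts per gene beside GO and KEGG terms. The submitters' processing notes name HISAT2, featureCounts, and DESeq2. The genome build, annotation, and strand setting are not given in the sources used here. No sequences were used, and gene positions in the RefSeq table (ARS1.2) served only to find genes that overlap. Reads in stretches where genes overlap could not be separated. The cells came from 3 animals, but nothing states which libraries share one, so p-values measure the spread between these samples.

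Because the values are counts, edgeR was used throughout, with filterByExpr, TMM factors, and the two-sided robust quasi-likelihood test, fitted to all 6 libraries without a covariate. The thresholds were those of the methods of the paper (log2FC beyond 1, p under 0.05), and p-values were adjusted over 12588 genes by the Benjamini-Hochberg method. The log2FC uses a prior count of 0.125, and its SE is the absolute log2FC over the square root of F. Intervals on summed counts are exact at the 95% level and cover counting error only. Shares and ranks used raw counts.

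The 10 genes and the gene lists were chosen with earlier results of these data known. From each list up to 4 genes in each direction are named, those with the largest log2FC among genes past the thresholds with an adjusted p under 0.05, a mean of at least 1 CPM, and no overlap between groups. ACTA2 and PROM1 are named as markers used by the study. The other list genes were named after their values were seen. Older symbols of the CCN genes (CYR61, CTGF, NOV, WISP1, WISP2, WISP3) were matched after the table was seen. SPOCK3, FBN3, STAB1, and 8 cell type markers were not analysed here.

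The alternatives were RLE, upper quartile and library size scaling, TMM without the 10 genes and the 100 most abundant genes, other filters, another prior count, DESeq2, R's t.test function (named in the methods of the paper) on log2(CPM + 1), an adjusted p threshold, the replicate number as a block, each library left out in turn, and the tested genes' counts as the denominator of shares. The fit was tested on simulated data in which few genes changed, equally in both directions. That simulation does not bear on the choice of scaling for these libraries. Versions were R 4.3.3, edgeR 4.0.16, DESeq2 1.42.0, Python 3.11.15, pandas 2.3.3, and matplotlib 3.10.9.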

Additional observations from a re-analysis of the deposited data

How the results depend on the processing

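With library size alone as the scale, the number of all tested genes called higher was 3390 in place of 1730, and the log2FC of FBLN1 was 0.095 in place of -0.38, against a median of all tested genes of 0.52. With log2(CPM + 1) values in R's t.test function, 1093 genes were called higher, and 1 in place of 3 matricellular relatives was. The cause was not tested. The other values kept their direction and their side of the thresholds or, for counts, stayed within 1.5 times. With each library left out, the log2FC of the 10 genes stayed between -8.75 (TNC) and -0.36 (FBLN1). Deviations from the group mean correlated little between same-numbered libraries (r = 0.0892, 0.0299, and -0.0764 across genes). With 3 libraries in each group, this cannot decide whether the numbers pair the samples. A fit with the replicate block called 1731 genes higher and 2178 lower. Levels with ATRA near 3 CPM, as for POSTN, and the low counts of TNXB, TNR, SPOCK2, and CD36 limit the precision of their folds. Genes with few counts in both groups could not be compared at this depth.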

Other observations

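Some list genes had too few counts to be tested. TNN, the tenascin also called tenascin W, had 11, 25, and 8 counts in the control libraries and 2, 3, and 1 in the ATRA libraries. ITGA9, an integrin subunit that binds tenascin C, had 20, 10, and 21 counts and 0, 1, and 5 with ATRA. THBS4 had 0 counts in each control library and 6, 1, and 1 with ATRA, and COMP, the fifth thrombospondin, had 5, 9, and 7 and 14, 18, and 5. CCN3 had 1, 1, and 2 counts and 5, 7, and 6 with ATRA. EMILIN3, CCN6, and ITGB6 had at most 2 counts in any library.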
